A study of Mus musculus with 6 samples.

Results

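The Notch receptor and ligand genes were examined in the RBPJ occupancy data of F9 cells, which are a mouse line of embryonal carcinoma from a testicular teratoma. The group comprised 9 genes, namely the 4 receptor genes Notch1, Notch2, Notch3 and Notch4 and the 5 ligand genes Dll1, Dll3, Dll4, Jag1 and Jag2. A peak was assigned to a gene when its center lay inside the gene or within 25 kb of either end (mm9, GENCODE annotation of the same build). By this rule, 10 of the 8433 peaks in both peak lists were at these genes, of which 6 were asynchronous and 4 were mitotic. The asynchronous list (5206 peaks) came from cycling F9 cells, described by the submitters as 95% interphase and 5% mitotic, and the mitotic list (3227 peaks) from F9 cells treated with 1 µg/ml nocodazole for 4 hours and washed off the dish. Both populations were precipitated with the same custom rabbit anti-RBPJ antibody, and the labels name no genetic change and no added Notch ligand for either. The study sequenced 6 libraries, with 2 immunoprecipitations and 1 input for each population. Each list was deposited with the first immunoprecipitation, and peaks were called against the matching input. Whether reads of the second immunoprecipitation entered the calls is not stated. With 1 list per population there are no replicate lists, so every value below describes these 2 lists and no test between the populations was possible. A site without a peak in a list may hold signal below the calling limit, so absence from a list is not absence of binding.

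Notch receptors are cleaved when a ligand of the Delta or Jagged family on a neighboring cell binds to them, and the released intracellular domain enters the nucleus. There it joins RBPJ, the DNA-binding protein of the pathway, and a Mastermind coactivator to activate genes such as Hes1. In the absence of the intracellular domain, RBPJ recruits corepressors to its sites. The genes of the receptors and ligands themselves are regulated in turn, and Delta and Jagged genes are expressed in patterns that set which cells send and which receive the signal.

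The sequences under the peaks closest to a transcript start of a receptor or ligand gene are shown because the results turn on them. All are the reference sequence of mm9 on the plus strand, and capitals mark the RBPJ-binding motif TTCCCACA or TTCCCACG as it reads on that strand, where these matches lie in reverse orientation. The Notch1 interval is that of the mitotic peak (chr2:26359578-26359780), which contains the whole asynchronous peak (chr2:26359592-26359764). The first Notch4 interval belongs to the asynchronous peak near the 3′ end of the gene (chr17:34723918-34724061, without the 29 bases of the peak that some transcripts annotate as untranslated). The second Notch4 interval belongs to the mitotic peak before the 5′ end (chr17:34700998-34701200), and the Dll1 interval to the asynchronous peak before its 5′ end (chr17:15513964-15514136).
Notch1, both populations: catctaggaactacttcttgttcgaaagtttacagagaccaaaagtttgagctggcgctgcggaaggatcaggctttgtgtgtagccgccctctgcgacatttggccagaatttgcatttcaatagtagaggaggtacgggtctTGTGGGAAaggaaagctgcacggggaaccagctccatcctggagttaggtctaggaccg
Notch4, asynchronous: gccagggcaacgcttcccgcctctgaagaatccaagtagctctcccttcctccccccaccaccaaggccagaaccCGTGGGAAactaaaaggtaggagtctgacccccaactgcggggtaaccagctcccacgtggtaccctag
Notch4, mitotic: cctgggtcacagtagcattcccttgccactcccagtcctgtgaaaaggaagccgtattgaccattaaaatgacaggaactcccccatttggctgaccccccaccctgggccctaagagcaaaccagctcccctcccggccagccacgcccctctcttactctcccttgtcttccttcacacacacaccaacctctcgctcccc
Dll1, asynchronous: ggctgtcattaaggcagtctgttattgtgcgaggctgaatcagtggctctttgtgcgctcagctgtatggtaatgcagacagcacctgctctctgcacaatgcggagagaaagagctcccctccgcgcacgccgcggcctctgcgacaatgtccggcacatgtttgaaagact
Both motif matches read on the minus strand, with 10 flanking bases on each side, are printed next to show that a T precedes each of them, so that both also contain TTTCCCAC (chr2:26359712-26359739 and chr17:34723983-34724010).
Notch1 motif: cagctttcctTTCCCACAagacccgtac
Notch4 motif: accttttagtTTCCCACGggttctggcc
The Notch4 mitotic and Dll1 asynchronous intervals contained neither the motif nor its shorter form TTCCCA.

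RBPJ peaks of either list were found at 5 of the 9 genes, where 37% of all 21833 protein-coding genes had one by the same rule. Asynchronous peaks were at 4 genes, with 2 at Notch1, 2 at Notch4, 1 at Dll1 and 1 at Dll3. Mitotic peaks were at 3 genes, with 1 at Notch1, 2 at Notch4 and 1 at Jag2. Notch1 and Notch4 were the genes with peaks of both lists. Notch2, Notch3, Dll4 and Jag1 had no peak of either list, so that receptors and ligands each contributed 2 genes without a peak. The map of peaks along the 9 genes shows that the peaks were not gathered at the 5′ ends. Of the 10 peaks, 4 were centered inside a gene, 2 upstream and 4 downstream, and the closest annotated transcript start belonged to the receptor or ligand itself for 5 peaks and to another gene for the other 5.

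**Figure D1:**
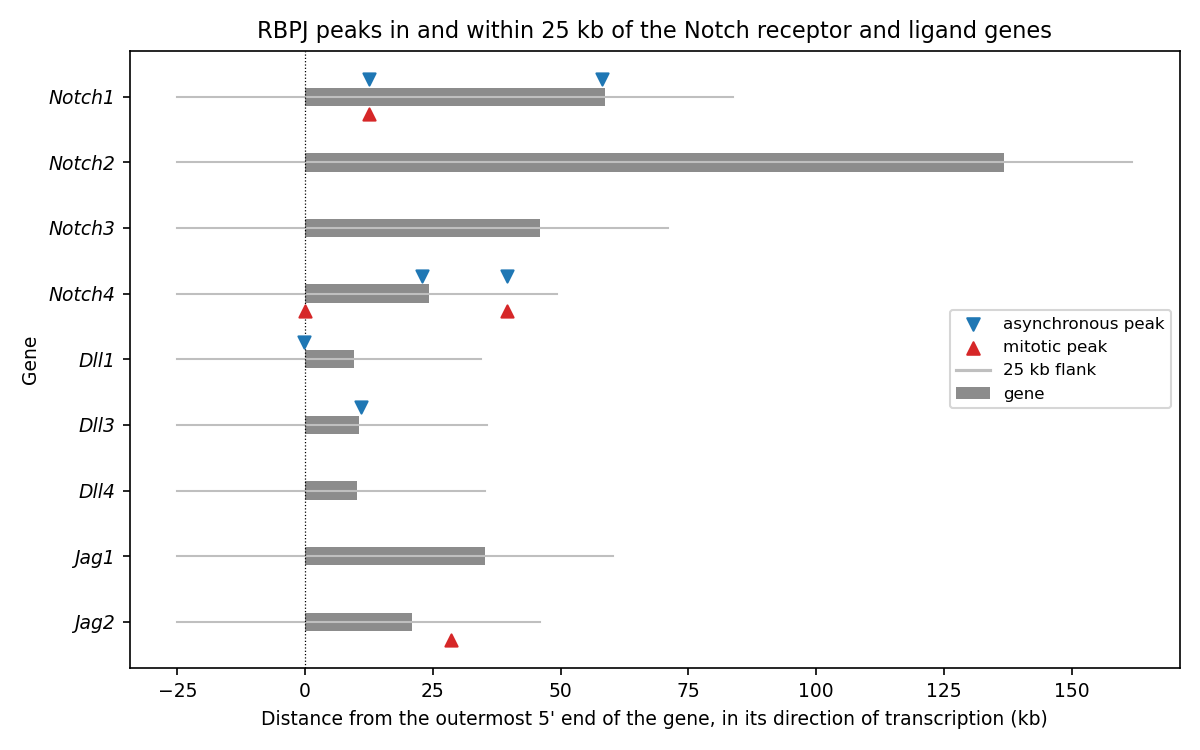
Peaks in and around the 9 genes, with the distance in kb from the outermost 5′ end of each gene on the x axis and 1 gene per row. Gray bars are genes, thin lines the 25 kb flanks, blue triangles the 6 asynchronous peaks and red triangles the 4 mitotic peaks, and the rows of Notch2, Notch3, Dll4 and Jag1 are empty.

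These counts were read against all protein-coding genes of the annotation on the chromosomes examined, 21833 in number, counted by the same rule. An asynchronous peak was present at 4 of 9 receptor and ligand genes, or 44.4% (exact binomial 95% interval 13.7 to 78.8), where 30% of all protein-coding genes had one. A mitotic peak was present at 3 of 9, or 33.3% (7.49 to 70.1), against 18.3% of all. Peaks of both lists were present at 2 of 9, or 22.2% (2.81 to 60.0), against 11.3% of all. Each interval contains the share of all genes, and 9 genes leave it wide. The plot of shares sets them beside the other genes of the pathway. For an asynchronous peak in the window the receptors and ligands were between the other pathway genes (52.6%) and all genes, and for one within 1 kb of a start they were above both, at 33.3% against 15.8% and 8.96%, both of which the interval of 7.49 to 70.1 contains. The search windows of the 9 genes had a median length of 74.2 kb, against 65.3 kb for all protein-coding genes. Per megabase of window, the 9 genes had 7.48 asynchronous and 4.99 mitotic peaks, and all protein-coding genes had 4.91 and 2.60. Over all genes a peak counts once for each window that holds it, which gave 10186 asynchronous and 5390 mitotic counts from lists of 5206 and 3227 peaks. The values of the 9 genes rest on 6 and 4 peaks, some of them next to starts of other genes, and have no interval.

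Near transcript starts the comparison was as follows. An asynchronous peak was centered within 1 kb of an annotated start of the gene at Notch1, Notch4 and Dll1, which is 3 of 9 or 33.3% (7.49 to 70.1), against 8.96% of all protein-coding genes. A mitotic peak was within this distance at Notch1 and Notch4, or 22.2% (2.81 to 60.0), against 3.98% of all. Both genes therefore had start peaks of both lists, 2 of 9 or 22.2% (2.81 to 60.0), where 1.45% of all protein-coding genes had them, although at Notch4 the starts were different ones, 22.8 kb apart. The annotation gives Notch1 13 transcript starts and Notch4 11, whereas the median protein-coding gene has 2 (quartiles 1 and 4). With the outermost 5′ end of each gene as its single start, 1 gene remained in each list, Dll1 in asynchronous cells against 7.73% of all genes, and Notch4 in mitotic cells against 3.35% of all. With the starts of protein-coding transcripts alone, a choice made after the annotation near the peaks had been seen, 1 gene had an asynchronous start peak, Notch1, against 8.39% of all genes. Notch1 and Notch4 had a mitotic one, against 3.71%, and Notch1 both, against 1.35%. The starts that dropped out, next to the asynchronous peaks of Notch4 and Dll1, belong to processed transcripts without a coding sequence.

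**Figure D2:**
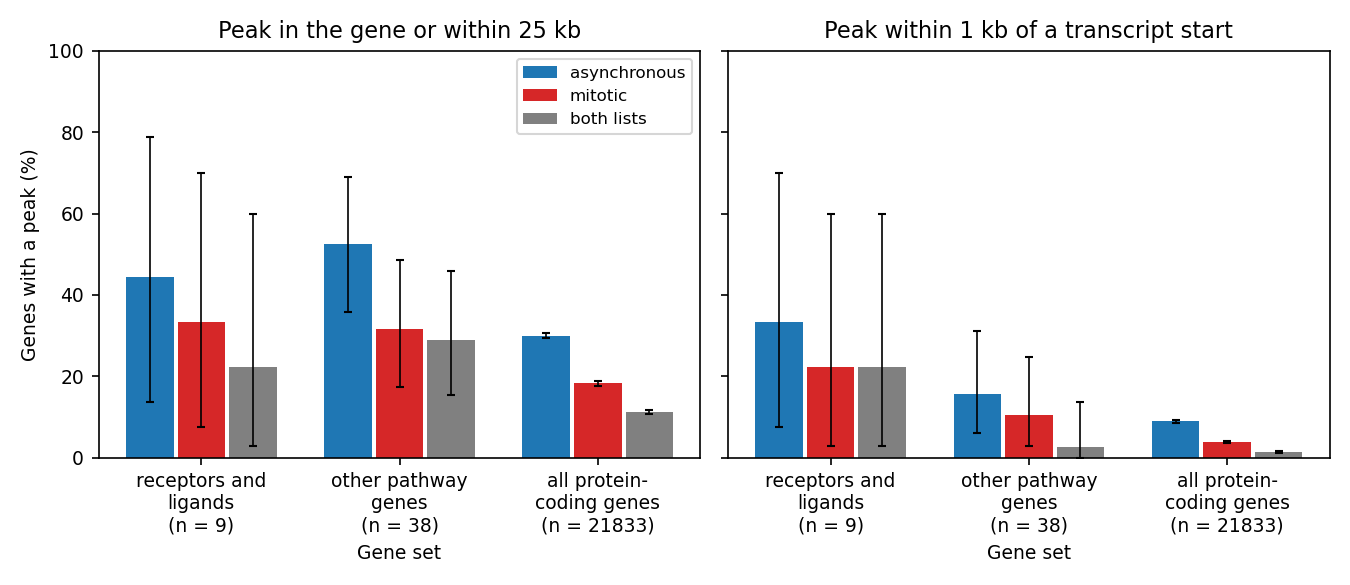
Percent of genes with a peak in the gene or within 25 kb (left) and within 1 kb of an annotated transcript start (right), for the 9 receptor and ligand genes, 38 other genes of the pathway and 21833 protein-coding genes. Bars are shares for the asynchronous list (blue), the mitotic list (red) and both lists (gray), and lines are exact binomial 95% intervals, which for the 9 genes reach from 13.7% to 78.8% around the asynchronous share of 44.4%.

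Most of the peaks at these genes scored at or above the median of their list, and all lay far below its highest score. The asynchronous peaks at Dll1 and in the last exon of Notch1 scored 10.6, and 14.4% of their list scored lower. The score is the authors' own value for each peak and was compared only within a list. The asynchronous list spanned scores of 10.1 to 58.3 (median 11.8), and the 6 peaks at receptors and ligands ran from 10.6 to 14.4 with a median of 12.2, 4 of them at or above the median of the list. The mitotic list spanned scores of 10.2 to 282.5 (median 10.9), and the 4 peaks ran from 11.6 to 13.8 with a median of 13.1, all above the median of the list. Scores within 20% of the lowest of the list were held by 3 of the 6 asynchronous and 1 of the 4 mitotic peaks, and by 53.8% and 79.5% of the peaks in the lists. Because many peaks tie in score, ranks are given as the range of ranks that share the score. Scores were multiples of 0.422 for 99.7% of asynchronous peaks and of 0.728 for all mitotic peaks (within 0.05). If 1 step is 1 read, the peaks at these genes held between 25 and 34 reads in asynchronous and between 16 and 19 reads in mitotic cells. If the score is in addition a number of reads per 10 M, the asynchronous list would rest on 23.7 M reads and the mitotic list on 13.7 M. The files state neither the unit of the score nor the number of reads in a library, and the methods of the study give mapped reads for the anti-RBPJ samples without saying for which library.

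**Figure D3:**
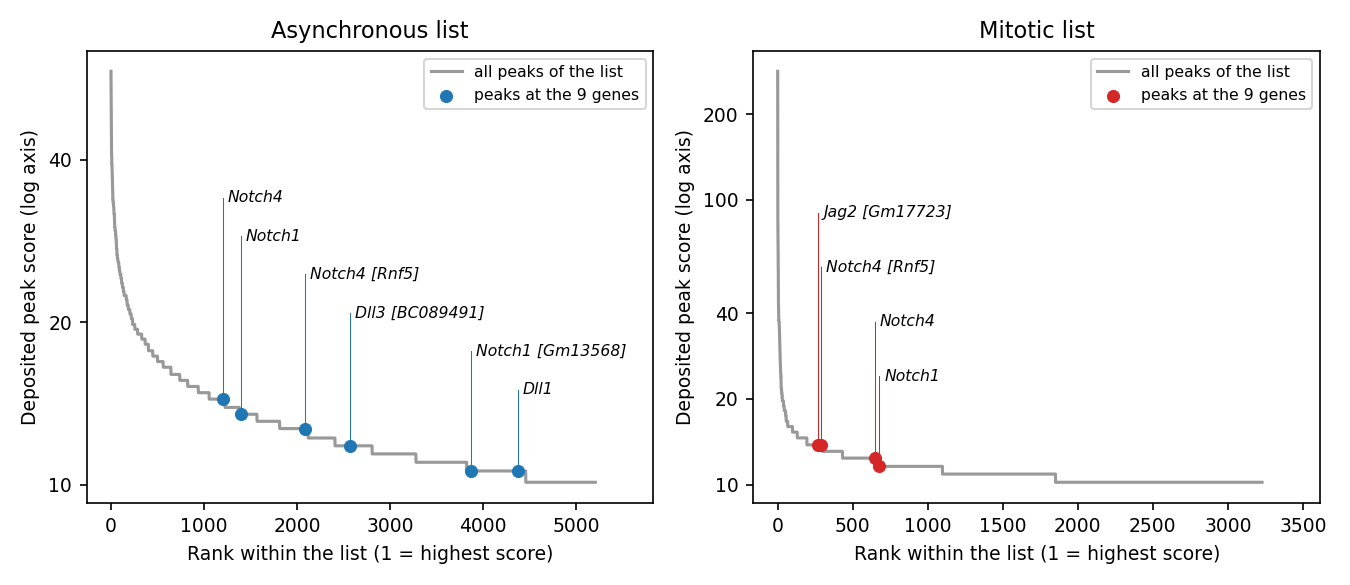
Deposited peak score (log axis) against rank within the asynchronous list (left) and the mitotic list (right), with all peaks of the list as a gray line and the peaks at the receptor and ligand genes as points. Names in brackets give the gene with the closest transcript start where this is not the receptor or ligand. The asynchronous points lie between scores of 10.6 and 14.4 and the mitotic points between 11.6 and 13.8.

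Notch1 encodes a receptor with roles in early embryos and in many stem cell compartments. Its gene held the only site of the group with overlapping peaks of both lists next to one of its own starts. Notch1 (ENSMUSG00000026923.8) lies on the minus strand of chromosome 2 from 26313423 to 26372183. The asynchronous peak from 26359592 to 26359764 had a score of 13.5, shared by ranks 1381 to 1569, and 69.9% of the list scored lower. The mitotic peak from 26359578 to 26359780 had a score of 11.6, shared by ranks 662 to 1098, and 66.0% of the list scored lower. The mitotic interval covered the whole asynchronous peak and the centers were 1 bp apart. Among the 403 overlapping pairs of the lists, 1.49% had closer centers, and the median distance was 43 bp. If 1 step of the score is 1 read, the peaks held 32 and 16 reads, with exact Poisson 95% intervals of 21.9 to 45.2 and 9.15 to 25.98 that cover counting error only.

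The pair lay inside the gene, 12.5 kb from its outermost 5′ end, in intron 1 of the protein-coding transcripts that begin furthest upstream. It was 336 bp (asynchronous) and 337 bp (mitotic) upstream of position 26359342, where 2 of the 5 protein-coding transcripts of Notch1 begin, and 334 and 335 bp upstream of the start of a retained-intron transcript at 26359344. Both peaks contained the motif TTCCCACA shown in the sequences, on the minus strand at 26359722 to 26359729, which is the strand of the gene. The motif was 47.5 bp above the asynchronous and 46.5 bp above the mitotic center in genome coordinates, and 383.5 bp upstream of the coding start at 26359342. No match to the CTCF-binding motif with up to 3 mismatches was found. No other protein-coding gene lay within 25 kb of these peaks. A second match within 1 kb of a Notch1 start, TTCCCACG at 26372046 to 26372053 close to the 5′ end, was in no peak of either list.

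The second asynchronous peak of Notch1 was at the other end of the gene, from 26314041 to 26314213, with a score of 10.6 (ranks 3824 to 4457, 14.4% of the list lower). It was 58.1 kb from the 5′ end and lay wholly in the 3′ untranslated region of the last exon. The closest transcript start was that of the lincRNA Gm13568, 1463 bp away, and Sec16a, whose product is needed for export from the endoplasmic reticulum, was also within 25 kb. It contained no RBPJ-binding motif, and the closest mitotic peak was that of the pair described above, at a distance of 45.6 kb. Notch1 thus had 1 site with peaks of both lists and 1 with an asynchronous peak alone, the latter near the lower limit of scores.

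Notch4, a receptor gene best known for its expression in endothelial cells, had peaks of both lists that did not coincide inside or before the gene. Notch4 (ENSMUSG00000015468.8) lies on the plus strand of chromosome 17 from 34701213 to 34725448. The asynchronous peak from 34723918 to 34724090 had the highest score of the group in its list, 14.4 (ranks 1056 to 1225), and 76.5% of the list scored lower. It lay 22.8 kb downstream of the 5′ end, in intron 28 of the main transcript with 30 exons, and reached 29 bp into the coding sequence of the following exon. Its center was 18 bp downstream of the internal noncoding start at 34723986. It contained the motif TTCCCACG on the minus strand at 34723993 to 34724000, -7.5 bp from the center, which is closer than the Notch1 motif. A match to the CTCF-binding motif with 3 mismatches was 43.5 bp above the center, and matches of this quality were present in 30.3% of all asynchronous peaks. The closest mitotic peak was 16.7 kb away.

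The mitotic peak at the 5′ end of Notch4, from 34700998 to 34701200, had a score of 12.4 (ranks 433 to 661), and 79.5% of the mitotic list scored lower. It was centered 114 bp upstream of the 5′ end, with no RBPJ-binding motif and no match to the CTCF-binding motif with up to 3 mismatches. The closest asynchronous peak was the intron 28 peak, 22.9 kb away. Notch4 was the one receptor or ligand gene with a mitotic peak within 1 kb of its outermost 5′ end, where its single protein-coding transcript also begins. On the assumption that 1 step is 1 read, it held 17 reads (exact Poisson 95% interval 9.90 to 27.2), against 14 for the weakest mitotic peaks. The score was 21.6% above the lowest of the list.

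A further pair was assigned to Notch4 by distance alone. The asynchronous peak from 34740641 to 34740813 (score 12.7, ranks 1813 to 2119) and the mitotic peak from 34740570 to 34740772 (score 13.8, ranks 196 to 297) lay 15.3 and 15.2 kb beyond the 3′ end of Notch4. They overlapped by 132 bp. The center of the mitotic peak was lower by 56 bp, and 55.8% of all overlapping pairs had closer centers. The closest start was that of Rnf5, a membrane-bound ubiquitin ligase, on the minus strand, 92 bp downstream of the asynchronous and 36 bp downstream of the mitotic center. Neither peak contained an RBPJ-binding motif. In this gene-dense stretch 7 other protein-coding genes were within 25 kb of each peak, so that assignment to Notch4 is a matter of the window.

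Among the ligand genes, Dll1 was the only one with a peak next to its own start. Dll1 encodes a Delta ligand that acts in somite formation and in neural progenitors. The gene (ENSMUSG00000014773.7) lies on the minus strand of chromosome 17 from 15504318 to 15513836. The asynchronous peak from 15513964 to 15514136 was centered 214 bp upstream of its 5′ end, which is the start of a processed transcript, and 1110 bp upstream of the start of its single protein-coding transcript. It had a score of 10.6 (ranks 3824 to 4457), which 14.4% of the list fell below. The peak also lay within an exon of the lincRNA A930024N18Rik. It contained 10 CpG dinucleotides, where the median asynchronous peak had 5, and no RBPJ-binding motif. The closest mitotic peak was 327 kb away. With a score 4.95% above the lowest of the list, the Dll1 peak shared the lowest score of the group with the one in the last exon of Notch1.

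Dll3 encodes a divergent Delta protein that does not activate receptors on neighboring cells and acts within the cell that makes it. The gene (ENSMUSG00000003436.10) lies on the minus strand of chromosome 7 from 29076673 to 29087257. Its asynchronous peak, from 29076225 to 29076397, had a score of 11.8 (ranks 2408 to 2806) and 46.1% of the list scored lower. It was 0.362 kb beyond the 3′ end of Dll3 and 106 bp upstream of the start of the adjacent gene BC089491, which is transcribed in the same direction. The peak contained the shorter motif TTCCCA, 40.5 bp above its center at 29076349 to 29076354, but not the full one. Within 25 kb there were 5 other protein-coding genes, and the closest mitotic peak was 90.1 kb away. At Dll3, 2 full motif matches lay within 1 kb of an internal start, and neither was in a peak.

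Jag2, a Jagged ligand gene, had a mitotic peak and no asynchronous peak. The gene (ENSMUSG00000002799.5) lies on the minus strand of chromosome 12 from 114146801 to 114167706. The mitotic peak from 114139089 to 114139291 had a score of 13.8 (ranks 196 to 297), and 90.8% of the mitotic list scored lower, the same as for the mitotic peak at Rnf5. It was intergenic, 7.61 kb beyond the 3′ end of Jag2, 28.5 kb from its start and 7416 bp from the start of Gm17723. No RBPJ-binding motif was found, and the closest asynchronous peak was 57.0 kb away. The ligand genes therefore had 2 asynchronous peaks and 1 mitotic peak at different genes, and none of these 3 overlapped a peak of the other list, as most peaks of either list did not (7.74% of asynchronous and 12.5% of mitotic peaks overlapped). Overlap of called peaks is not the study's measure. The study compared read enrichment between the populations and classed the majority of sites in each as common. That measure needs read numbers, which the lists do not give.

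**Figure D4:**
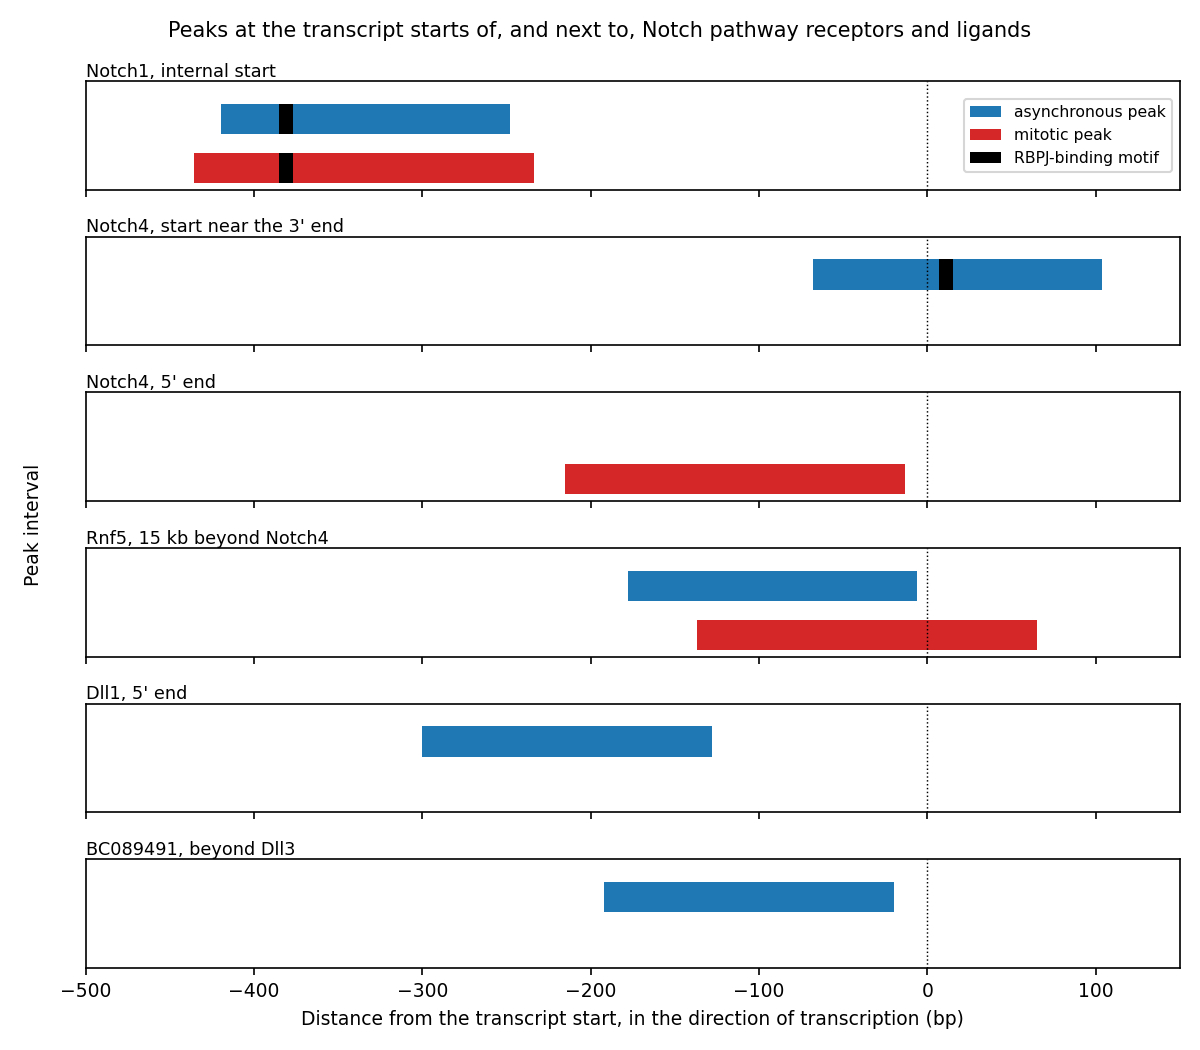
Intervals of the peaks at transcript starts, with the distance from the start in bp on the x axis, in the direction of transcription, and 1 start per panel. Blue bars are asynchronous and red bars mitotic peaks, and black marks are matches to TTCCCACA or TTCCCACG. The Notch1 intervals are nested around the same motif, the Rnf5 intervals are offset by 56 bp, and the other 4 starts have a peak of 1 list.

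Notch2 and Notch3, which encode receptors with roles in vessels and other tissues, and the ligand genes Dll4 and Jag1, both needed in blood vessels, had no peak within the window. At Notch2 (ENSMUSG00000027878.9, chromosome 3) the closest asynchronous peak was 675 kb from the gene and the closest mitotic peak 332 kb. At Dll4 (ENSMUSG00000027314.6, chromosome 2) these distances were 151 kb and 630 kb. Jag1 (ENSMUSG00000027276.7, chromosome 2) was the most isolated of the 9, with distances of 1149 kb and 1297 kb. At Notch3 (ENSMUSG00000038146.7, chromosome 17) an asynchronous peak of the lowest score of the list, 10.1, lay 45.5 kb beyond the 3′ end, and the closest mitotic peak was 300.4 kb away. The peaks farthest from their gene within the limit of 25 kb were those at Rnf5, at 15.3 and 15.2 kb. Just outside were an asynchronous peak 36.6 kb upstream of Dll3, also with a score of 10.1, and the one beyond Notch3. The median distance from a transcript start of the 9 genes to the closest peak was 71.5 kb for asynchronous and 328 kb for mitotic peaks, and 114 kb and 234 kb over all protein-coding genes.

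The motif was more widespread than the peaks. The windows of the 9 genes contained 78 matches to TTCCCACA or TTCCCACG on either strand, between 3 at Jag2 and 15 at Jag1, and 2 of the 78 were inside a peak, that of Notch1 and that of Notch4. Jag1 and Notch2, without a peak, had 15 and 12 matches, and Notch1 13. These counts depend on window length, and per 10 kb they ran from 0.423 at Jag2 to 1.76 at Jag1, with 0.642 at Notch2. The share of matches inside a peak over the windows of all genes was not computed. Within 1 kb of the outermost 5′ end, Notch1 and Notch3 had a match, 2 of 9, where 16.0% of all protein-coding genes had one. In the peaks, the motif was present in 2 of 6 asynchronous peaks at these genes, against 9.09% of all asynchronous peaks (8.32 to 9.90), and in 1 of 4 mitotic peaks, against 3.53% of all (2.92 to 4.23). The shorter TTCCCA was present in 3 of 6 and 1 of 4, against 35.9% and 25.1%. The form TTTCCCAC or TTTCCCAG, which overlaps the others, was present in the same 2 asynchronous peaks and 1 mitotic peak as TTCCCACA or TTCCCACG, against 10.0% and 5.05% of all. The CTCF-binding motif with up to 2 mismatches was in none of the 10 peaks, against 11.1% and 6.04% of the lists. With 6 and 4 peaks, these counts were too few to compare the group with the lists.

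The receptor and ligand peaks overlapped a peak of the other list in 2 of 6 asynchronous cases, or 33.3% (4.33 to 77.7), against 7.74% of the asynchronous list, and in 2 of 4 mitotic cases, or 50% (6.76 to 93.2), against 12.5% of the mitotic list. The pairs concerned are those of Notch1 and Rnf5. These shares count overlap of called peaks and are not the study's shares of common sites, which rest on read enrichment. By position, 5 of 6 asynchronous and 3 of 4 mitotic peaks were in the class of promoters, defined as centers at most 1 kb before or 100 bp after any annotated start, against 31.3% (30.0 to 32.6) and 20.4% (19.0 to 21.8) of the lists. The rest were the peak at the end of Notch1 and the intergenic peak near Jag2. Among the promoter peaks, the closest start belonged to Rnf5 for the Rnf5 pair and to BC089491 for the Dll3 peak. The closest starts to the asynchronous peaks inside Notch4 and at Dll1 were those of processed transcripts. The peaks here had to lie in or within 25 kb of a gene, and the lists did not. The contrast therefore cannot show whether promoter peaks were enriched at receptors and ligands. GC content of the asynchronous peaks ran from 50.9% to 60.1% with a median of 56.1%, equal to that of the list. That of the mitotic peaks ran from 47.3% to 58.1% with a median of 50.2%, against 53.7% for the list.

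The other genes of the pathway were described by role, using 38 genes. Asynchronous peaks were at 20 of them, or 52.6% (35.8 to 69.0), mitotic peaks at 12, or 31.6% (17.5 to 48.7), and peaks of both lists at 11, or 28.9% (15.4 to 45.9), while 17 had neither. The shares of all protein-coding genes were 30%, 18.3% and 11.3%. The intervals for asynchronous peaks and for both lists lay above these shares and that for mitotic peaks contained its own, which is a description, since the genes were listed with earlier results known. Among genes for receptor cleavage, 3 of 7 had an asynchronous and 1 of 7 a mitotic peak. Among genes for glycosylation of the receptors, the numbers were 3 and 2 of 5. For the nuclear complex they were 2 and 2 of 5, for trafficking and turnover 6 and 3 of 12, for atypical ligands 2 and 1 of 3, and for the Hes and Hey targets 4 and 3 of 6. The corresponding numbers were 2 and 2 of 4 for the receptors and 2 and 1 of 5 for the ligands, and groups of this size cannot be ranked. Rbpj itself had no peak of either list. Heyl had none either, although the paper shows browser tracks of RBPJ occupancy at this gene.

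Peaks within 1 kb of a start were present at 9 of these 38 genes, 6 in the asynchronous list and 4 in the mitotic list. These are 15.8% (6.02 to 31.3) against 8.96% of all protein-coding genes, and 10.5% (2.94 to 24.8) against 3.98%. Both intervals contain the share of all genes. Aph1a, a subunit of the γ-secretase that cleaves the receptors, had an asynchronous peak 135 bp from a start. Snw1, a nuclear cofactor of RBPJ, had one at 29 bp, Mib2, a ubiquitin ligase for the ligands, at 385 bp, Numb, an inhibitor of the receptors, at 170 bp, and Dner, an atypical ligand, at 111 bp. In the mitotic list, Rfng, a fringe glycosyltransferase, had a peak at 921 bp, Maml1, a Mastermind coactivator, at 226 bp, and the target Hes5 at 779 bp. Hes1, the canonical target, had peaks of both lists within 1 kb, at 3 bp and 26 bp, and the asynchronous one scored 26.6, above all 6 asynchronous peaks at receptors and ligands. Hes1 was thus the only 1 of the 38 other pathway genes with start peaks of both lists, or 2.63% (0.0666 to 13.8). Notch1 and Notch4 were 2 of the 9 receptor and ligand genes, and the share of all protein-coding genes was 1.45%. The start peaks of the lists overlapped at Hes1 and Notch1, whereas at Notch4 they were at different starts.

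**Figure D5:**
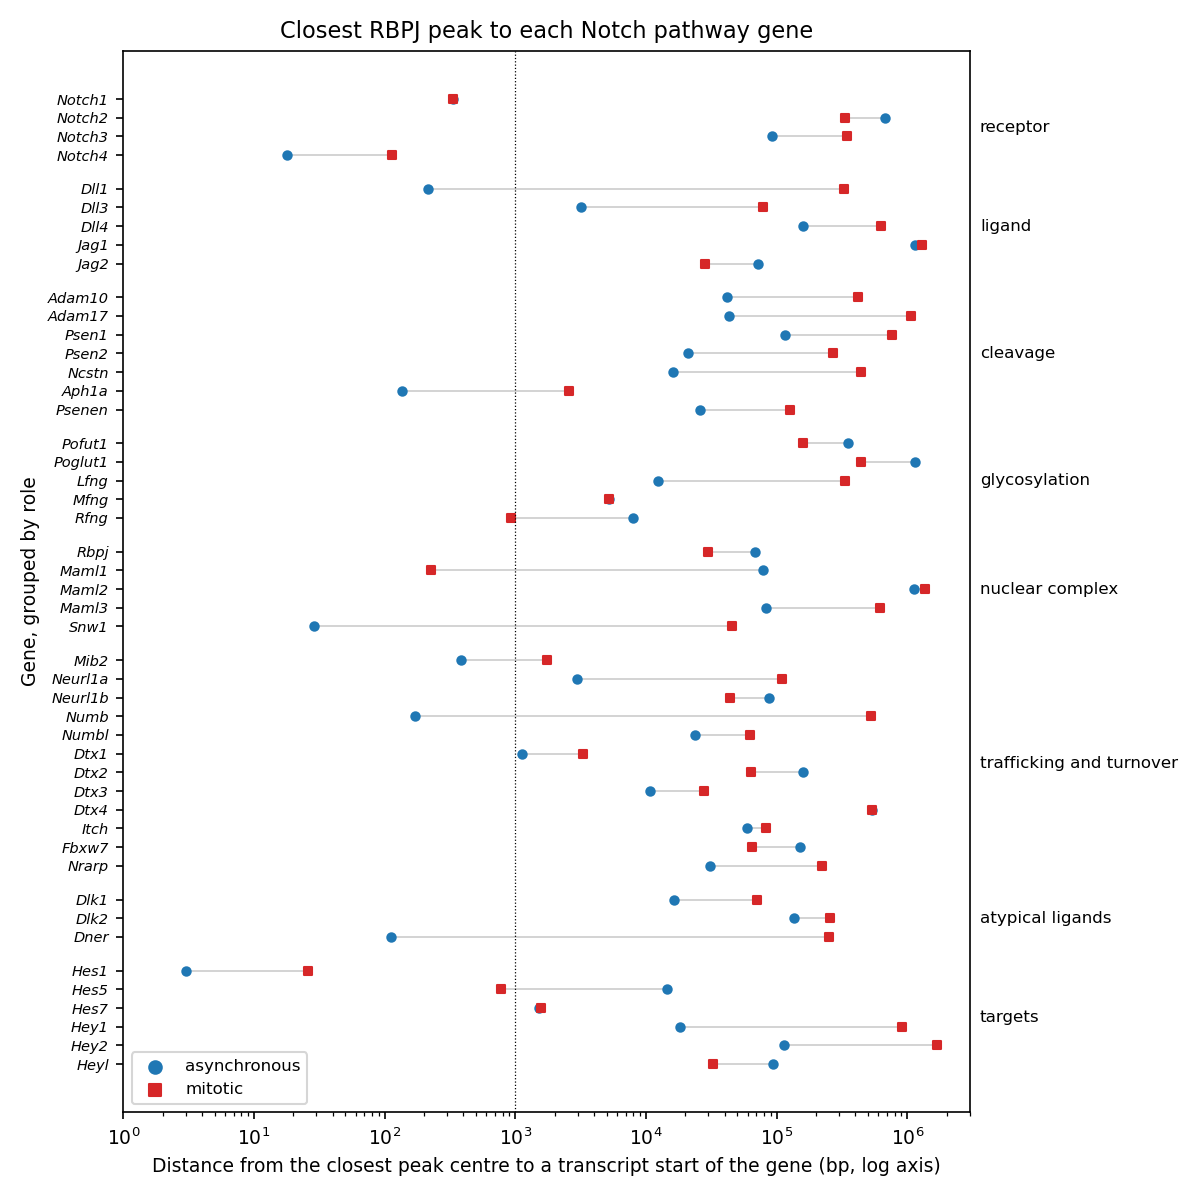
Distance in bp (log axis) from the closest peak center to an annotated transcript start, for the 9 receptor and ligand genes and 38 other genes of the pathway, grouped by role. Blue circles are asynchronous and red squares mitotic peaks, and the dotted line marks 1 kb. Hes1, Notch1 and Notch4 lie left of the line in both lists, in the case of Notch4 by peaks at different starts, and Jag1 lies beyond 1149 kb in both.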

How the data were processed

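Anti-RBPJ ChIP-seq peak lists of asynchronous and mitotic F9 cells were read as deposited. The authors aligned reads uniquely to mm9 with bowtie (version 0.12.7 in the submitters' notes), used HOMER to call peaks relative to the input (false discovery rate 0.001, Poisson p 0.0001) and applied a 1 RPM cutoff. The origin and unit of the score values deposited by the authors are not given in the sources used here. The second immunoprecipitations, the inputs and the reads were not analysed here.

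Lists were processed with pandas 2.3.3, numpy 2.4.6, scipy 1.17.1 and pysam 0.24.0 under Python 3.11.15, and plotted with matplotlib 3.10.9. Centers were the middle of each interval, and peaks overlapped if they shared at least 1 bp. Motifs were searched on both strands of mm9, the CTCF-binding core of 12 bases with up to 2 mismatches. Genes of 1 chromosome were left out of the background and pathway list. Genes named were all 9 receptors and ligands, the gene with the closest start to each peak, and pathway genes with a peak within 1 kb of a start, plus Rbpj, Heyl and other genes within 25 kb, chosen after values were seen. Members and lists were chosen with earlier results of these data known. On simulated data 200 of 200 window assignments, pairs and planted motifs were recovered. One alternative, the starts of protein-coding transcripts, was added after the data were seen. Intervals are exact binomial (Clopper-Pearson) or Poisson and cover counting error only, since no replicate list was available and the files give no read numbers.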

Additional observations from a re-analysis of the deposited data

How the results depend on the processing

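Of 70 recalculated values, 51 stayed within 1.5 times the reported count (for the share of all genes, within its interval) and 19 did not. Without flanks (a window of 0 kb), 2 genes had an asynchronous peak, 1 a mitotic peak and 1 both, with 3 asynchronous peaks, 1 mitotic peak and 1 overlapping pair. With a window of 10 kb, 1 overlapping pair was left, that of Notch1. With scores at least 20% above the lowest of the list, 2 genes had an asynchronous peak and 1 peaks of both lists, with 3 asynchronous peaks, 1 overlapping pair, and 1 gene with a mitotic peak within 1 kb of a start. With scores at or above the median, 11 other pathway genes had an asynchronous peak. Counting only the outermost 5′ end left 1 gene with a start peak in each list, and counting only protein-coding transcripts, added after the data were seen, left 1 gene with an asynchronous one. With up to 3 mismatches, 1 asynchronous peak held the CTCF-binding motif. Over all annotated genes, the shares with a peak were 23.7% and 14.4%. The other windows, overlap rules, start distances and motif forms changed no count by more than 1.5 times. No paired analysis was possible because only 1 list per population was available for use. Scores near the calling limit and 9 genes set the precision.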

Other observations

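Further promoter words were counted in the peaks at the receptor and ligand genes, on both strands, and all 4 were chosen after the sequences had been seen. The octamer ATTTGCAT, the sequence recognized by POU proteins such as Oct4, was present in the Notch1 pair and in no other of the 10 peaks, where 1.09% of all asynchronous and 0.744% of all mitotic peaks held it. The GC box GGGCGG was present in 3 of 6 asynchronous and 2 of 4 mitotic peaks, including the Notch1 and Rnf5 pairs, against 14.6% and 11.1% of the lists. The word CCAAT was in 2 of 6 and 1 of 4, including both Rnf5 peaks, against 19.8% and 22.9%. The E box CACGTG was in 1 of 6 asynchronous peaks, that inside Notch4, and in none of the mitotic ones, against 8.72% and 4.31%. These are matches of letters in the reference sequence, and no occupancy by other factors was measured.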
